A study of Mus musculus with 4 samples.

Results

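The IL-17 receptor chains and the adaptors that work with Act1 were examined in macrophages cocultured with colon cancer cells. They were taken by gene symbol from the 21878 genes of the count table, and all 10 were found: Traf3ip2, which encodes Act1, the receptor chains Il17ra, Il17rb, Il17rc, Il17rd and Il17re, and the TRAF adaptors Traf2, Traf3, Traf5 and Traf6. Macrophages were grown with M-CSF from bone marrow of C57BL/6 mice aged 8 weeks per the labels, and then shared a well for 48 h with MC38, a mouse colon cancer line held in an insert with pores. One group came from wild type mice (WT, 2 libraries) and the other from mice with a macrophage-specific knockdown of Act1 (anti-Act1, 2 libraries). The study's legend gives a shorter coculture and its methods a wider range of ages. No macrophages cultured without MC38 cells were analysed here, and all 4 libraries share the coculture. The construct and promoter that drive the knockdown are not given in the sources used here.

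IL-17 cytokines signal through pairs of receptor chains. IL-17RA is the common chain, and IL-17RC joins it to bind IL-17A and IL-17F, IL-17RB to bind IL-25, and IL-17RE to bind IL-17C, while IL-17RD is a less well defined member of the family. Act1 docks on the paired chains through its SEFIR domain and recruits TRAF6, which leads to NF-κB and MAP kinase activation. With TRAF2 and TRAF5, Act1 takes part in the stabilisation of chemokine and cytokine mRNAs, and TRAF3 is a restraint on the pathway and also on signalling by CD40 and the BAFF receptor.

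The libraries held 55435063 to 75062945 counts. A count of 0 allowed a level of up to 0.0395 to 0.0549 CPM (reads of a gene per 1e6 reads of its library, with the TMM factor applied to the total), which covers counting error only. The 4 Y-linked genes Ddx3y, Eif2s3y, Uty and Kdm5d had 2248 to 7360 counts under the WT label and at most 1 count under the anti-Act1 label, so the sex of the mice and the genotype cannot be told apart. None of the 10 genes lies on X or Y. Macrophage markers were high in every library, with a summed level of 24570 to 25551 CPM in WT and 25415 to 26254 CPM in anti-Act1. Of these 8 markers Cd14 rose by 0.16, and Itgam and Mertk fell by 0.31 and 0.40 on the log2 scale. This was 37.5% called (adjusted p under 0.05, edgeR), beside 20.7% of all genes tested.

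Traf3ip2 is the gene targeted in the anti-Act1 mice, and its level was therefore examined first. It lies at chr10:39612934-39655307 on the plus strand of GRCm38. It had 451 and 572 counts under the WT label and 595 and 428 under the anti-Act1 label. Both groups summed to 1023 counts, from fewer total counts in anti-Act1. After scaling, the level was 6.98 and 7.54 CPM in WT and 9.63 and 7.84 CPM in anti-Act1. Both anti-Act1 libraries thus lay above both WT libraries, the second by a small margin. The level counted for Traf3ip2 was therefore not reduced under the anti-Act1 label. Its log2 fold change was 0.27 (SE 0.12, n = 2 per group), or 1.21-fold with a 95% interval of 1.02 to 1.43, and it did not pass the test (adjusted p = 0.117, edgeR quasi-likelihood F test with Benjamini-Hochberg adjustment over 12494 genes). The first anti-Act1 library set the size of the difference. The value was 0.11 without it, and 0.41 without the second anti-Act1 library, where it passed the test (adjusted p = 0.0343, edgeR).

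Because the level counted for Traf3ip2 was not reduced, every direction that follows is that of the labels. The library kit does not mark strand. The annotated genes E130307A14Rik and Gm16365 overlap Traf3ip2 on the other strand and have no line in the count table, so reads from either strand at this locus cannot be told apart. The gene on one side, Fyn, a tyrosine kinase of the Src family, had 941 and 1155 counts in WT and 699 and 661 in anti-Act1 and fell (log2 fold change -0.35, adjusted p = 0.00469, edgeR). Rev3l on the other side, a subunit of a translesion DNA polymerase, had a log2 fold change of -0.11 (adjusted p = 0.3603, edgeR). Among 9448 genes with a mean of at least 5 CPM, the profile over the 4 libraries most like that of Traf3ip2 was seen for Gk5, Samsn1 and E330009J07Rik. Their centred log2 CPM differed from that of Traf3ip2 by a root mean square of 0.0233, 0.0411 and 0.0428. They were picked as the closest of 9448 genes on 4 values each, so small differences follow from the selection. A link between them and Traf3ip2 was not tested.

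Levels were compared between genes as FPKM, which the authors computed per gene length. Traf6 was the most abundant of the 10 genes at 12.8 and 13.7 FPKM in WT and 17.8 and 17.2 FPKM in anti-Act1. Il17ra was next, at 10.1 and 10.4 FPKM in WT and 9.55 and 9.94 FPKM in anti-Act1. Every Traf6 value was above every Il17ra value, and Il17ra was in turn above Traf3 and Traf2 in every library. Traf3 (5.69 to 7.27 FPKM over the 4 libraries) and Traf2 (4.999 to 6.108 FPKM) had overlapping ranges. The same held for Traf5 (3.46 to 4.07 FPKM) and Traf3ip2 (2.74 to 3.75 FPKM), which stood lower. Traf3ip2 was thus among the lowest of the genes that were clearly present. A wide gap separated it from the remaining receptor chains.

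Il17rc, the chain that pairs with IL-17RA for IL-17A and IL-17F, was at 0.116 and 0.126 FPKM in WT and 0.152 and 0.108 FPKM in anti-Act1. Within each library Il17ra was above Il17rc by 86.9- and 82.9-fold in WT and by 62.6- and 92.4-fold in anti-Act1, with overlap between the groups. Il17rd, at 0.0886 to 0.131 FPKM, overlapped with Il17rc. Il17rb followed at 0.0157 to 0.0605 FPKM. Il17re had 2 counts in the second WT library and 0 in the other libraries. The common chain was therefore measured at a far higher level than any of its partner chains. For Il17ra the length behind the FPKM was 3977 bases, against 7752 in its longest GENCODE M21 transcript, and a longer model would lower its FPKM if no further reads were gained.

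**Figure D1:**
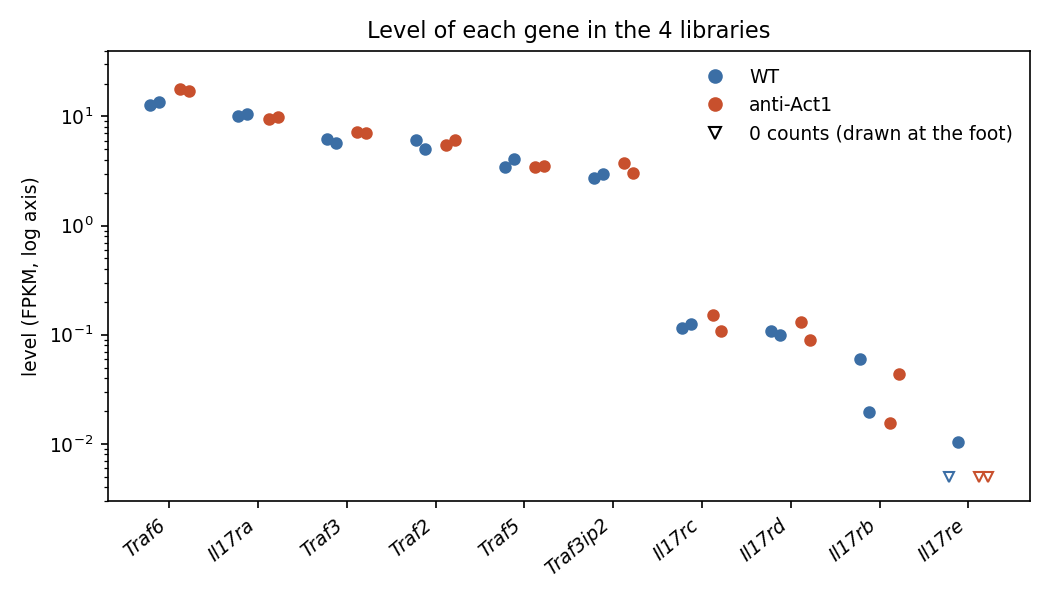
Level of the 10 genes in each library, as FPKM on a log axis, ordered by the WT mean. Points are single libraries (blue WT, red anti-Act1), and open triangles mark 0 counts. The TRAF genes, Il17ra and Traf3ip2 lie between 2.74 and 17.8 FPKM, and Il17rc, Il17rd, Il17rb and Il17re at or below 0.152 FPKM.

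Next, it was asked which of these genes differed between the groups. Traf6 and Traf3 rose in anti-Act1, and no member fell. The test could be run on 8 of the 10 genes, as Il17rb and Il17re were left out by the filter on low counts. With 2 of 8 called (25%), the share was near that of all genes tested, of which 20.7% passed, 10.9% higher and 9.76% lower. Across the 8 genes the log2 fold change had a median of 0.13, and across all genes tested one of -0.0046. The summed level of the 10 genes was 197.55 and 198.14 CPM in WT and 235.19 and 236.33 CPM in anti-Act1. Most of the difference came from Traf6 (mean 79.9 CPM in WT and 107 CPM in anti-Act1) and Traf3 (42.1 and 51.5 CPM).

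Traf6, the E3 ubiquitin ligase that Act1 recruits, had 4996 and 6262 counts in WT and 6709 and 5792 in anti-Act1. This was 77.3 and 82.5 CPM in WT and 109 and 106 CPM in anti-Act1, with no overlap between groups. Of all genes tested, 57.1% likewise had no overlap, so this alone sets no gene apart. The log2 fold change of Traf6 was 0.43 (SE 0.055, n = 2 per group), or 1.34-fold with a 95% interval of 1.24 to 1.45, and passed the test (adjusted p = 3.36e-08, edgeR). The ratio of Traf6 to Il17ra in FPKM was 1.27 and 1.31 in WT and 1.86 and 1.73 in anti-Act1.

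Traf3, the adaptor that holds back the noncanonical NF-κB kinase NIK, had 2845 and 3049 counts in WT and 3210 and 2786 in anti-Act1. Its level was 44.0 and 40.2 CPM in WT and 52.0 and 51.0 CPM in anti-Act1. Here too both anti-Act1 libraries were higher, by a smaller margin than for Traf6. The log2 fold change was 0.29 (SE 0.063, n = 2 per group), or 1.22-fold with a 95% interval of 1.12 to 1.34 (adjusted p = 0.000398, edgeR). The ratio of Traf6 to Traf3 in FPKM was 2.06 and 2.41 in WT and 2.45 and 2.44 in anti-Act1, so the WT libraries differed between themselves by more than the second of them differed from the anti-Act1 libraries. On the other strand Traf3 is overlapped by 4930595D18Rik, whose reads cannot be told apart either.

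Promoters of 8 of the 10 genes were found in RefSeq (GRCm38.p6), each from 250 bases before to 50 after the start. Those of Traf6 and Traf3 are shown because these genes rose together, and that of Il17rc because this chain had the fewest counts among the genes tested. They lie on the plus strand at chr2:101678170-101678469, chr12:111166120-111166419 and chr6:113471205-113471504. Capitals mark a match on either strand to the NF-κB consensus, to AP-1 (TGANTCA), to the GC box (GGGCGG) or to GAGGAA. The last is a form of ETS site, and other forms were not searched for.

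Traf6: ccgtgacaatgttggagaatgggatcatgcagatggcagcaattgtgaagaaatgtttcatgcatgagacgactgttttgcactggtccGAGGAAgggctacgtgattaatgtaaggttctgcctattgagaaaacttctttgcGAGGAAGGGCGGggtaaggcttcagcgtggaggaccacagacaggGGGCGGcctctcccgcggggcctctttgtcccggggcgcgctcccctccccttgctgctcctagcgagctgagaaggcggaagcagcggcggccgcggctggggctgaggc

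Traf3: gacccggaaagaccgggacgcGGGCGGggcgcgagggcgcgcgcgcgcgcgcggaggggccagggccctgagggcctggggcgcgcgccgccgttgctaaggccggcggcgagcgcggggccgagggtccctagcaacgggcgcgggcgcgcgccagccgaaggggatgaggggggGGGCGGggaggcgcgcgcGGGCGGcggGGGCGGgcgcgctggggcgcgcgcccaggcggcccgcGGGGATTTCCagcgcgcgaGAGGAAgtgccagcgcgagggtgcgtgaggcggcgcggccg

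Il17rc: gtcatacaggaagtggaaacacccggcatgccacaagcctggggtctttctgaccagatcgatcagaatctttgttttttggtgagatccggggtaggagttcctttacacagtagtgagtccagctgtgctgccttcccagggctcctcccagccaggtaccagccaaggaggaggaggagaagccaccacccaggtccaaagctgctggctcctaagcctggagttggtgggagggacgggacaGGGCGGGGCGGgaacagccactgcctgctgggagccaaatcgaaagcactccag

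Traf3 was the only one of the 8 with a match to the NF-κB consensus, which began 10 bases before the start, at position -10. Of 32851 mouse promoters of this length 8.46% hold such a match. Its GC content was 84.0%, and its 59 CpG dinucleotides were more than those of 99.9% of promoters, against a median of 7. The Traf6 promoter had no NF-κB or AP-1 match, 2 GC boxes, 2 GAGGAA matches and 19 CpG dinucleotides. The Il17rc promoter held 7 CpG dinucleotides and 2 overlapping GC boxes, which begin in the run GGGCGGGGCGG. A GC box was found in 7 of the 8 promoters and in 35.7% of all promoters. GAGGAA was found in 5 of 8 and 28.3%, and an AP-1 match in 1 of 8 (Il17rb) and 7.81%. The promoters of the genes that rose therefore did not share an NF-κB match. These are matches of letters, and binding was not measured.

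The other adaptors did not pass the test. Annotated genes overlap both on the other strand, Gm13433 for Traf2 and Gm26879 for Traf5. Gstp-ps and Mir3473c also overlap Traf5 on its own strand. Traf2, which brings cIAP ubiquitin ligases to receptors, was at 20.8 and 17.1 CPM in WT and 19.1 and 21.5 CPM in anti-Act1. The groups overlapped, with a log2 fold change of 0.10 (SE 0.086, 95% interval -0.071 to 0.27, adjusted p = 0.463, edgeR). Traf5, which acts with TRAF2 downstream of Act1, was at 7.38 and 8.64 CPM in WT and 7.48 and 7.62 CPM in anti-Act1. Its anti-Act1 libraries lay between the WT libraries, with a log2 fold change of -0.09 (SE 0.12, 95% interval -0.33 to 0.16, adjusted p = 0.680, edgeR). The second WT library was the lower for Traf2 and the higher for Traf5, and both directions turned without it, to -0.03 for Traf2 and 0.03 for Traf5.

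Il17ra gave the narrowest bound among the receptor chains. It was at 39.9 and 41.0 CPM in WT and at 38.1 and 40.1 CPM in anti-Act1. The second anti-Act1 library fell between the WT libraries. Its log2 fold change was -0.05 (SE 0.064, n = 2 per group, adjusted p = 0.657, edgeR), and the 95% interval of the fold was 0.884 to 1.06.

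Il17rc had 15 and 19 counts in WT and 19 and 12 in anti-Act1, and Il17rd had 56 and 61 in WT and 66 and 40 in anti-Act1. In both genes the anti-Act1 libraries lay on either side of the WT libraries in CPM. In log2 fold change, Il17rc had 0.13 (SE 0.57, 95% interval -1.02 to 1.29, adjusted p = 0.909, edgeR) and Il17rd 0.12 (SE 0.34, 95% interval -0.58 to 0.81, adjusted p = 0.860, edgeR). A change of 2-fold in Il17rc was not detectable at this depth. Without the first anti-Act1 library the values were -0.13 and -0.18. Il17rb had 8 and 3 counts in WT and 2 and 5 in anti-Act1, too few for a comparison, and its gene overlaps Actr8 on the other strand. Among genes with 1 to 20 counts 66.4% to 68.2% of the values were even in each library, against 46.5% to 54.9% in a range of higher counts, so 2 counts of such a gene may come from the mates of a single read pair.

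**Figure D2:**
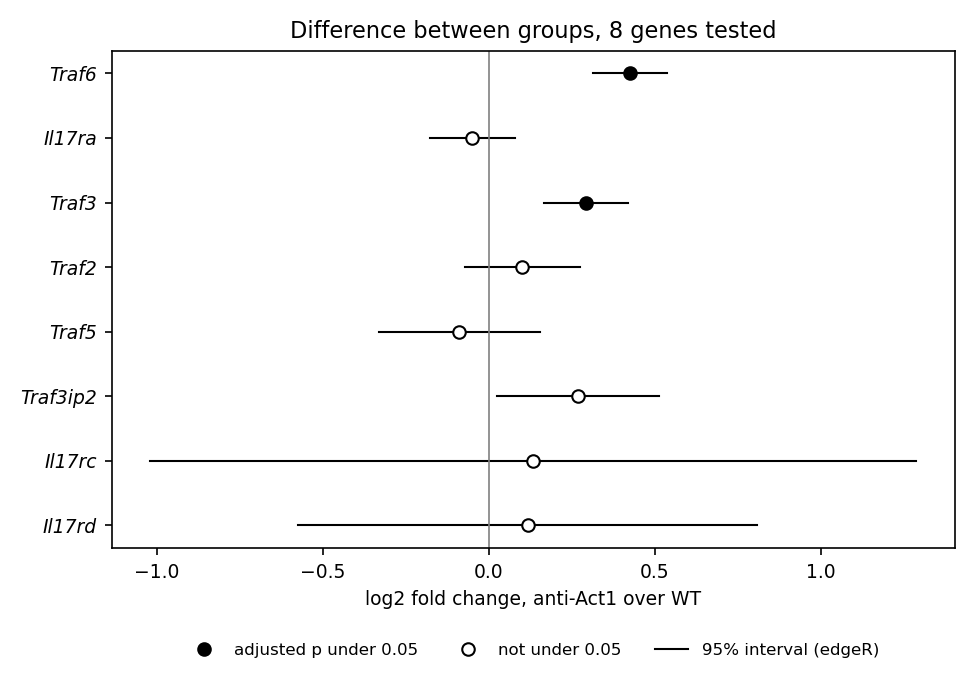
Log2 fold change (anti-Act1 over WT) of the 8 genes tested, with the 95% interval from edgeR (2 libraries per group). Filled points passed the test. Traf6 (0.43) and Traf3 (0.29) are filled, and the intervals of Il17rc and Il17rd are the widest.

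The comparison was repeated under other settings for the 8 genes tested, and 4 of them are plotted. Traf6 was called in 14 of 14 alternatives, at 0.38 to 0.47, and Traf3 in 13 of 14, at 0.23 to 0.36. Traf3ip2 was above 0 in 14 of 14 and was called in 1. Il17ra was below 0 in 14 of 14 and was called in 0, at -0.09 to -0.01.

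**Figure D3:**
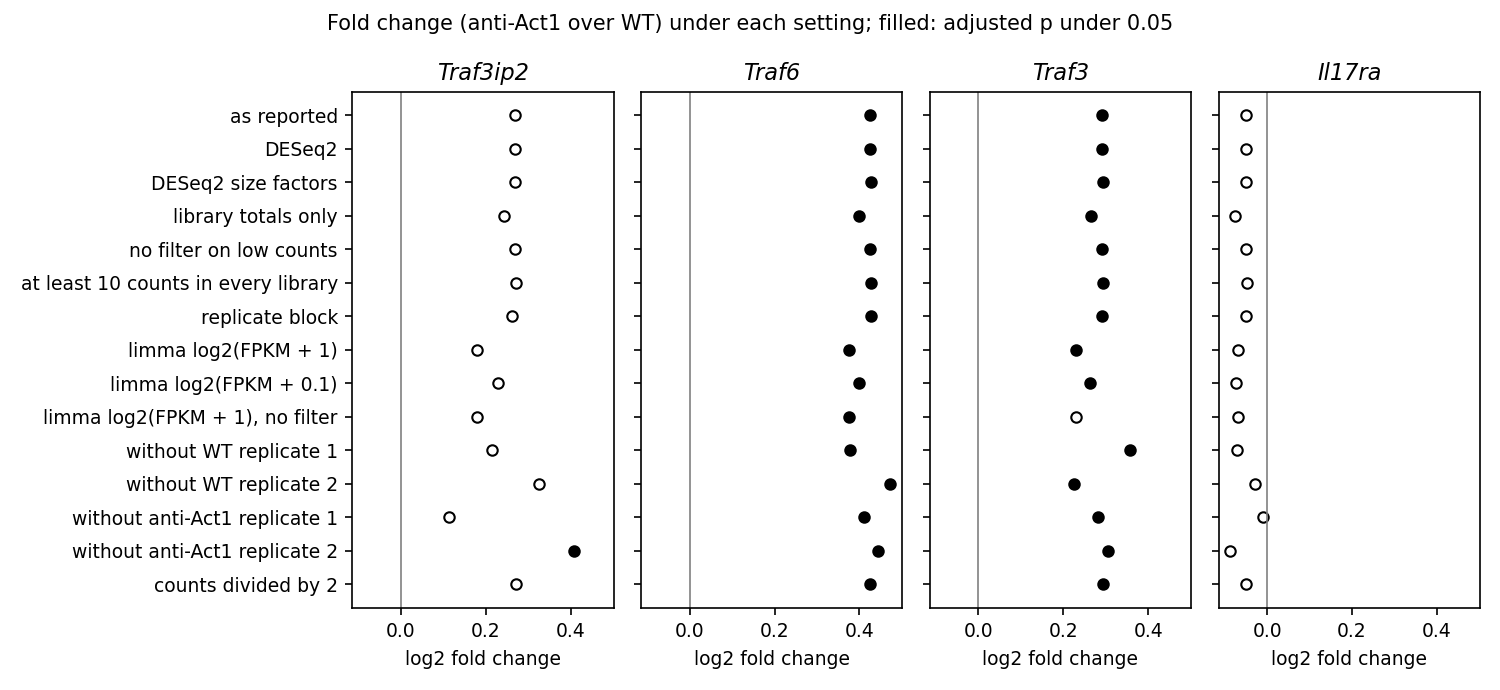
Log2 fold change (anti-Act1 over WT) of Traf3ip2, Traf6, Traf3 and Il17ra as reported and under 14 alternatives, named on the left. Filled points have an adjusted p under 0.05. Traf6 is filled throughout, Traf3 is open under unfiltered limma on log2(FPKM + 1), and Traf3ip2 is filled only without anti-Act1 replicate 2.

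The genes around these members were then followed along the pathway, from ligands to targets. The ligand genes other than Il17c were at or near 0. Il17a, Il17b, Il17d and Il25 had 0 counts in the 4 libraries, and Il17f had 0 and 10 counts in WT and 2 and 0 in anti-Act1. Il17c, the ligand of IL-17RE, was the one ligand that could be tested, with 47 and 48 counts in WT, 46 and 32 in anti-Act1 and a log2 fold change of -0.02 (adjusted p = 0.979, edgeR).

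Of 6 other TRAF genes, 1 rose, 1 fell and 4 did not pass (33.3% called, beside 20.7% of all genes tested), with a median log2 fold change of 0.07. Traf1, an NF-κB target that binds TRAF2, was at 11.6 and 10.7 CPM in WT and 16.5 and 17.9 CPM in anti-Act1 (log2 fold change 0.62, adjusted p = 7.52e-07, edgeR). Traf3ip3, a TRAF3-binding protein, was at 15.8 and 14.3 CPM in WT and 10.8 and 11.3 CPM in anti-Act1 (log2 fold change -0.44, adjusted p = 0.000452, edgeR). Neither gene had overlapping groups, as was the case for 57.1% of all genes tested.

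Of 17 genes for kinases and their binding or regulatory subunits downstream of Act1 and TRAF6, 0 rose and 3 fell. That is 17.6% called, near the 20.7% of all genes tested, and the median log2 fold change was -0.03. Those that fell were Ikbkb (-0.15, adjusted p = 0.0325), the catalytic subunit of the IκB kinase, Map3k3 (-0.14, adjusted p = 0.0379) and Mapk14 (-0.14, adjusted p = 0.0421), which encodes p38α, all by edgeR. These changes were small, and with the replicate block the adjusted p (edgeR) was 0.0638 for Ikbkb, 0.0750 for Map3k3 and 0.0808 for Mapk14, so none passed. Leaving out any 1 of the 4 libraries also ended the call for Ikbkb (adjusted p = 0.0603 to 0.312, edgeR), leaving out any but WT replicate 1 ended it for Map3k3 (0.111 to 0.251), and leaving out any but WT replicate 2 ended it for Mapk14 (0.131 to 0.31).

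Of 16 regulators of Act1 or of the mRNAs that IL-17 controls, 4 rose and 2 fell (37.5% called, beside 20.7% of all genes tested), with a median log2 fold change of 0.03. Tnfaip3, encoding the ubiquitin-editing enzyme A20, was at 73.5 and 72.9 CPM in WT and 113 and 114 CPM in anti-Act1. Nfkbiz (0.50), encoding IκBζ, Birc3 (0.49), encoding cIAP2, and Zc3h12a (0.45), encoding the RNase Regnase-1, also rose (log2 fold changes, adjusted p of 5.25e-07, 6.11e-10 and 1.52e-07, edgeR). Tnfaip3 and Zc3h12a are known as negative feedback genes and Nfkbiz as a co-activator. These genes and Birc3 are known to be induced by NF-κB. The genes that fell were Cebpb (-0.89), at 351 and 212 CPM in WT and 170 and 133 CPM in anti-Act1, and Cebpd (-0.30), both transcription factors of the C/EBP family that IL-17 induces in other cells. Cebpb did not pass with DESeq2 or with limma on unfiltered FPKM, and was -0.48 without WT replicate 1. Cebpd passed in 10 of 14 alternatives and not without WT replicate 1 (-0.24) or without anti-Act1 replicate 1 (-0.22).

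Of 20 genes known as targets of IL-17, 15 could be tested, 10 rose and 3 fell. That is 86.7% called, beside 20.7% of all genes tested (10.9% higher and 9.76% lower), in a list chosen with earlier results of these data known. Their median log2 fold change was 0.66. They are also targets of other stimuli of NF-κB, and none of them reports on IL-17 alone. The neutrophil chemokine gene Cxcl1 was at 7.23 and 7.97 CPM in WT and 21.0 and 20.7 CPM in anti-Act1 (log2 fold change 1.46, adjusted p = 3.17e-17, edgeR). Cxcl3 rose by 1.75, Tnf by 1.02, Ptgs2 by 0.97, Mmp9 by 0.96 and Cxcl2 by 0.95 on the log2 scale. Icam1, S100a8 and Il1b rose by 0.41, 0.66 and 0.29. Il6 had 4 and 2 counts in WT and 17 and 18 in anti-Act1, a difference that rests on few reads. It passed in 6 of 10 alternatives, and not without WT replicate 2 (adjusted p = 0.147), anti-Act1 replicate 1 (0.0686) or anti-Act1 replicate 2 (0.124, edgeR). The monocyte chemokine genes went the other way. Ccl2 was at 13.6 and 12.8 CPM in WT and 7.01 and 7.60 CPM in anti-Act1, and Ccl7 had a log2 fold change of -0.77 (adjusted p = 8.19e-05, edgeR). S100a8 and S100a9, which encode the subunits of calprotectin, differed in direction, with 118 and 118 counts of S100a9 in WT and 50 and 24 in anti-Act1. Lcn2 (0.17, adjusted p = 0.788, edgeR) and Mmp13 (0.15, adjusted p = 0.0544, edgeR) did not pass, Ccl20 had 0 counts, and Csf2, Csf3, Cxcl5 and Mmp3 had at most 16 counts in any library.

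The TNF-family receptors and ligands that use TRAF proteins or Act1 were measured for 10 genes, of which 7 could be tested, 2 rose and 0 fell (28.6% called, beside 20.7% of all genes tested). Cd40, whose signal Act1 and TRAF3 restrain, was at 2.37 and 2.74 CPM in WT and 4.31 and 4.39 CPM in anti-Act1 (log2 fold change 0.76, adjusted p = 0.000616, edgeR). Tnfrsf1b, encoding TNF receptor 2, rose by 0.22 on the log2 scale (adjusted p = 0.000776, edgeR) from a high level. Cd40lg, the ligand of CD40, had 1 count in all, and Tnfrsf13c, encoding the BAFF receptor, had 0.

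**Figure D4:**
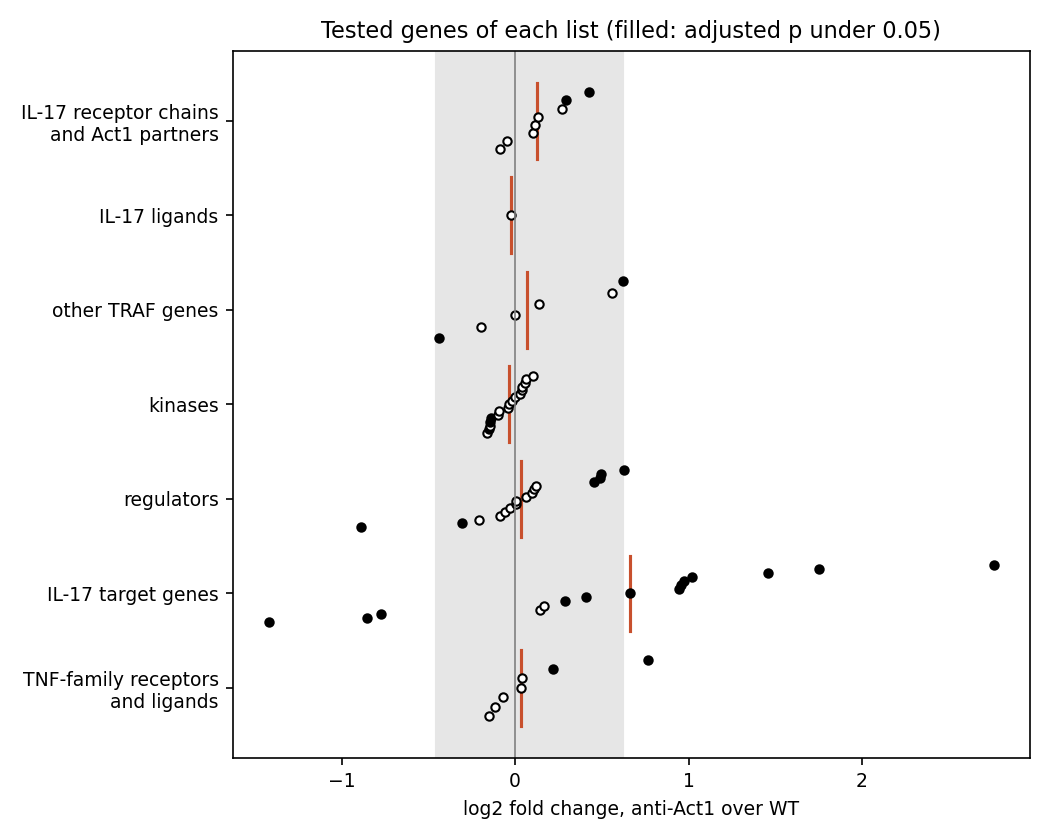
Log2 fold change (anti-Act1 over WT) of the tested genes of each list, one point a gene, filled where the adjusted p is under 0.05. Red bars are list medians, and the grey band holds the 5th to 95th percentile of 12494 genes (-0.46 to 0.62). The 8 receptor and adaptor genes lie inside the band, as do the 17 genes labelled kinases, which include binding or regulatory subunits. The points farthest from 0 belong to the IL-17 target genes.

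Markers of other cells were compared between the groups. Epithelial markers summed to 0.343 to 0.464 CPM in WT and 0.128 to 0.389 CPM in anti-Act1, with Krt8, Krt18 and Cldn4 at 0 counts. Those of fibroblasts summed to 1.33 to 1.58 CPM in WT and 1.89 to 2.19 CPM in anti-Act1, most of it from Pdgfrb (adjusted p = 0.156, edgeR), with Lum at 0 counts. B cell markers summed to 2.91 to 3.18 CPM in WT and 3.69 to 4.03 CPM in anti-Act1, most of it from Cd79b (adjusted p = 0.162, edgeR). T cell markers, of which 6 of 7 have a line in the table, summed to 25.2 to 25.6 CPM in WT and 27.3 to 31.0 CPM in anti-Act1. Nearly all of this came from Cd4, which macrophages can express. Cd4 was the only T cell marker tested, and it rose (log2 fold change 0.21, adjusted p = 0.0358, edgeR). Neutrophil markers, which include S100a8 and S100a9, summed to 6.40 to 6.70 CPM in WT and 6.46 to 7.33 CPM in anti-Act1, most of it from S100a8. Of 5 tested, S100a8 rose and 2 fell (60% called, beside 20.7% of all genes tested), with a median log2 fold change of -0.99. Those that fell were S100a9 and Ngp, a granule protein gene with 43 and 47 counts in WT and 11 and 5 in anti-Act1 (log2 fold change -2.21, adjusted p = 0.00181, edgeR). Elane had 12 and 15 counts in WT and 2 and 9 in anti-Act1. Mpo had 4 and 13 in WT and 0 in anti-Act1, and Ly6g had 5 counts in 1 WT library and 0 elsewhere. Camp did not fall, with 18 and 9 counts in WT and 14 and 12 in anti-Act1 (log2 fold change 0.20, adjusted p = 0.874, edgeR). The part of neutrophil RNA in the values of S100a8 and S100a9 was not tested. The summed levels of the fibroblast, B cell and T cell lists were thus higher in anti-Act1, and their part in the results was not tested. That of the 10 genes was also higher, mostly through Traf6 and Traf3. In these bulk samples, fewer cells of a type and less RNA per cell cannot be told apart.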

How the data were processed

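RNA of macrophages cocultured with MC38 cells was sequenced in 2 WT and 2 anti-Act1 libraries, which the study calls biological replicates. The authors aligned the read pairs with TopHat and deposited whole counts per gene, without normalisation, and FPKM values. Each FPKM the authors deposited is the count over the length of the gene and the total of its library. The submitters' processing notes list Bowtie 0.12.2, HTSeq 0.6.1 and the builds mm8 and mm10 with no role, and the annotation is not given in the sources used here.

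Counts were tested with edgeR 4.0.16 in R 4.3.3 (TMM, filterByExpr, condition only, two-sided quasi-likelihood F test, Benjamini-Hochberg over the 12494 genes tested, threshold 0.05). Standard errors and intervals come from this model. An exact permutation test of 2 against 2 libraries cannot go below p = 0.333 and was not used. On simulated counts for this comparison 199 of 200 changed genes and 6 unchanged genes were called among 12494. The changed genes were drawn from well-counted genes, with folds larger than that of any member tested. All genes were given the same spread between replicates. The share called therefore does not carry over to smaller folds or to low counts. Alternatives were DESeq2 1.42.0, its size factors, library totals only, other filters, a replicate block, limma 3.58.1 on log2(FPKM + 1) or log2(FPKM + 0.1), and each library left out. Halved counts, rounded up, were added after seeing the data. No pair of replicates agreed within sampling noise (chi-square per degree of freedom 10.8 in WT and 7.45 in anti-Act1).

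The genes and lists were chosen with earlier results of these data known. All 10 members are named, and of each list any gene with an adjusted p under 0.05 and any gene with at most 3 counts in every library. Il17c, Il17f, Lcn2, Mmp13, Csf2, Csf3, Cxcl5, Mmp3, Pdgfrb, Cd79b, Elane, Mpo, Ly6g and Camp were named after their values were seen, to account for their lists. For Traf3ip2, the 3 genes of most similar profile and both neighbouring genes are named. Positions come from GENCODE M21 (GRCm38) and promoters from RefSeq (GRCm38.p6). The counts themselves were used as deposited, whatever build they were made on.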

Additional observations from a re-analysis of the deposited data

How the results depend on the processing

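The number of genes called was 2586 and lay between 1961 and 2652 under the alternatives that kept all libraries, except for limma on log2(FPKM + 1) without a filter, which called 1091 genes and, of the 10 members, 1 (Traf6) where 2 were called otherwise. With the counts divided by 2, 2652 genes and 2 members were called. Leaving out each library in turn gave 1671 to 2543 genes called (1671 without anti-Act1 replicate 2, 1712 without anti-Act1 replicate 1) and 2 to 3 members called. The log2 fold change then ran from -0.13 to 0.35 for Il17rc, from -0.18 to 0.36 for Il17rd, from -0.03 to 0.24 for Traf2 and from -0.20 to 0.032 for Traf5, so that the direction of these 4 genes is not settled. In these fits the lone library of a group is assumed to vary like the other group. Of the pathway genes outside the members, 26 of 62 tested were called, beside 20.7% of all genes tested, and 20 to 27 over the alternatives. With the replicate block 2406 genes, 2 members and 23 pathway genes were called. The correlation of deviations between same-numbered libraries was -0.0334 over 2 pairs, so the numbers are not shown to pair the libraries. The cause of these differences between settings was not tested. Il17rb and Il17re hold too few counts for any comparison at this depth.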
